A study of Mus musculus with 14 samples.

Results

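Solute carriers are membrane proteins that move ions, nutrients, metabolites and neurotransmitters across the cell surface and the membranes of organelles, and their genes share the symbol stem Slc followed by a family number. 187 genes with such a symbol had an H3K4me3 region with values in both deposited tables, out of 10542 genes named in them. They held 194 of 14881 regions with values, belonged to 41 family numbers and lay on 20 chromosomes. Members were chosen by symbol alone, 2 genes were left out by the same rule, and where a gene had a second region the one with the highest mean stood for it. 4 of the 187 symbols (Slc4a1ap, Slc7a6os, Slc9a3r1 and Slc9a3r2) belong to genes named after a carrier, such as adaptor proteins that bind one, and are not carriers themselves.

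The tissue was the cerebral cortex of adult mice (strain C57BL/6J, age 3 months) that had been given nicotine or, as the control, saccharin in solution during development. H3K4me3, trimethylation of lysine 4 on histone H3, was profiled by chromatin immunoprecipitation and sequencing (ChIP-seq). 14 libraries fell into 4 groups: postnatal-only nicotine (4 libraries) and saccharin (4), and pre- and postnatal nicotine (3) and saccharin (3). The labels name no transgene or deletion. The one treatment text, common to every group, tells of solutions given to pregnant mice from conception, withdrawn from the offspring at day 21 and followed by rest until day 90, so the postnatal-only course is known from the group names alone. Sex was not given, and nothing in the labels says that replicates are separate animals, so p-values measure only the spread between these samples.

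H3K4me3 marks the nucleosomes around the start sites of transcribed genes and is strongest where the promoter is rich in CpG dinucleotides. In cortex, solute carriers end transmitter signals by uptake (Slc1 and Slc6 families), load synaptic vesicles (Slc17 and Slc32), carry glucose and lactate to neurons (Slc2 and Slc16), set the chloride gradient that gives GABA its inhibitory effect (Slc12), and link mitochondria to the cytosol (Slc25). Many are used mainly by 1 cell type, and in bulk tissue fewer cells of a type and less mark per cell cannot be told apart.

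Values are read counts per region that the authors had adjusted between libraries. Each table was adjusted on its own, so levels are not compared between exposures. Postnatal libraries summed to between 2004918 and 2489860 and pre- and postnatal ones to between 1445810 and 2372855, and raw depth is unknown. Libraries 1 and 2, and libraries 3 and 4, of each postnatal group differed by little more than counting noise (variance 1.01 to 1.08 times it, against 2.24 to 2.76 times for other pairs). The libraries of such a pair were averaged into 1 sample, leaving 2 samples per postnatal group. 15 very strong regions, none of them a solute carrier gene, took 8.30% to 25.5% of the summed signal of a postnatal library and 19.1% to 49.7% of a pre- and postnatal one. This share stood apart from the groups: among postnatal samples it was high in nicotine 1-2 (25.2%) and saccharin 3-4 (18.7%), and low in nicotine 3-4 (10.04%) and saccharin 1-2 (8.47%). In the pre- and postnatal table nicotine 1 was lowest, at 19.1%, against 28.8% to 49.7% in the other libraries. Solute carrier regions held 1.28% to 1.34% of the remaining signal of every postnatal library and 1.25% to 1.33% of every pre- and postnatal one. Of marker genes for cortical projection neurons 8 of 10 had a region, with a median of 57.2 per kb in postnatal saccharin samples. Of microglial markers 1 of 6 had one, at 4.13 per kb. Medians were 55.9 for astrocytes (4 of 8), 39.8 for oligodendrocytes (7 of 8) and 36.4 for striatum (5 of 6). They were 36.1 for thalamus and hindbrain (7 of 8) and 32.5 for choroid plexus and ependyma (2 of 6). Endothelial and mural cells had 28.1 (4 of 7) and interneurons 23.9 (5 of 8).

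Some lists of markers differed between the treatments in each table. No marker region passed the test given below in either exposure, and none was at 0 in any sample. In the pre- and postnatal table all 7 measured markers of thalamus and hindbrain (of 8 listed) had negative differences, nicotine minus saccharin. Their median was -0.42 on the log2 scale. Their summed signal was 189 to 224 in nicotine samples and 271 to 317 in saccharin samples, without overlap. Both measured choroid plexus and ependymal markers (of 6), all 5 striatal ones (of 6) and 4 of 5 interneuron ones (of 8) were negative, with medians of -0.64, -0.12 and -0.42. The summed signal of these 3 lists was 22.5 to 50.6, 192 to 210.5 and 66.6 to 135 with nicotine and 50.4 to 57.5, 201 to 247 and 103 to 140.2 with saccharin. Of 4 astrocyte markers (of 8) 3 were positive, with a median of 0.20 and sums of 219 to 275 against 221 to 234. The medians of projection neuron, oligodendrocyte and endothelial and mural markers were -0.02, 0.09 and 0.11, and the single microglial marker differed by -0.92. In the postnatal table the medians were 0.25 for interneurons, 0.16 for endothelial and mural cells and 0.57 for the microglial marker. They were -0.10 for projection neurons and -0.02 to 0.03 for the other lists. Of the 8 projection neuron markers 7 were negative there, with sums of 1053 to 1087 with nicotine against 1089 to 1102 with saccharin. Of the 5 interneuron markers 4 were positive, with sums of 201 to 235 against 183 to 198. The sums of both lists did not overlap, with only 2 samples per group, and those of every other list did. The part of these markers in the differences of solute carrier genes was not tested.

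Promoter sequence is shown first because the level of the mark varied far more between genes than between treatments. In RefSeq sequence of build GRCm38.p6, 152 of the 187 genes had at least one listed promoter window, 120 had exactly one, and in 96 of these the listed start lay within 500 bp of the end of the gene where transcription begins. The windows run from 250 bases before the start to 50 after it. The sequences below are the 250 bases before the start for the pair of genes with the highest and the pair with the lowest signal per kb among those 96, and for Slc17a7 and Slc2a1, the transporters that fill glutamate vesicles and carry glucose across the blood-brain barrier. CpG dinucleotides are in capitals. Each is written 5′ to 3′ on the gene's own strand.

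Slc2a13: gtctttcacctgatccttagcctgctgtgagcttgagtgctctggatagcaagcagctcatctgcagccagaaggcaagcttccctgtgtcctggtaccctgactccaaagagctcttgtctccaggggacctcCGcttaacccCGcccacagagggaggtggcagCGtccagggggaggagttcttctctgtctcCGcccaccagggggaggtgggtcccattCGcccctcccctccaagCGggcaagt
Slc22a17: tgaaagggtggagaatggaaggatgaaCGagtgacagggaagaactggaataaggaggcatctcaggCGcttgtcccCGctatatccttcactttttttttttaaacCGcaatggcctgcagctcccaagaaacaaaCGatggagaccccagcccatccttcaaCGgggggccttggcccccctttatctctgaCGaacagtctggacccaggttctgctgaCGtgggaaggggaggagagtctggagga
Slc17a7: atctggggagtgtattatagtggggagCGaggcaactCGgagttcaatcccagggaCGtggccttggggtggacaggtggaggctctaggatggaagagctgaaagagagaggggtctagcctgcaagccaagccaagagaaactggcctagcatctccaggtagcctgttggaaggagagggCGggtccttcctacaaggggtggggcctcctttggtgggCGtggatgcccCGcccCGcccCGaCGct
Slc2a1: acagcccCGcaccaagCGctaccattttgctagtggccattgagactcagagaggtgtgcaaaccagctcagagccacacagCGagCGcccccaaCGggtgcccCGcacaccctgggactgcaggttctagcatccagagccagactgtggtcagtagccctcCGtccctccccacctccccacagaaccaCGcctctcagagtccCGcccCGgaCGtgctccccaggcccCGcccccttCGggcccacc
Slc10a7: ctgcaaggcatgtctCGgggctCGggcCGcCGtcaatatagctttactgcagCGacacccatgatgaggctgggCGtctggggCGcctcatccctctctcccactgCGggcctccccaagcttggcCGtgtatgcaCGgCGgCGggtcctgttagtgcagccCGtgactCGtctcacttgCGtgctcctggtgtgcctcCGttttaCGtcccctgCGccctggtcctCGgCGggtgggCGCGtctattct
Slc5a5: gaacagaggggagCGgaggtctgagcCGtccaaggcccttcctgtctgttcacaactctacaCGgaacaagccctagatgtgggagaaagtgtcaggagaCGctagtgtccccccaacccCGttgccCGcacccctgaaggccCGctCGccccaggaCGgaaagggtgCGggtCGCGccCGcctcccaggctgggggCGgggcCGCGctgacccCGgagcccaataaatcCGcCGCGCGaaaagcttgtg

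On GRCm38.p6 the stretches are chr15:91573262-91573511 on the minus strand for Slc2a13, chr14:54913133-54913382 on the minus strand for Slc22a17, chr7:45163671-45163920 on the plus strand for Slc17a7, chr4:119108495-119108744 on the plus strand for Slc2a1, chr8:78509078-78509327 on the plus strand for Slc10a7 and chr8:70892758-70893007 on the minus strand for Slc5a5. Each lies directly upstream of the listed transcription start.

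Of the genes printed, the pair with the highest signal was not the richest in CpG. Slc2a13, at 219.5 per kb, and Slc22a17, at 189 per kb, had 6 and 8 CpG dinucleotides in the printed stretch and 13 each in the full window, whereas Slc10a7, at 3.23 per kb, and Slc5a5, at 7.37 per kb, had 22 and 21 in the stretch and 26 and 29 in the window. Slc17a7, at 42.6 per kb, had 9 in the stretch and Slc2a1, at 75.8 per kb, had 13. The regions of the tables are on build mm9, for which no genome was used here, so whether a region covers the listed start was not analysed here.

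Over the 96 windows the median number of CpG dinucleotides was 20.5 (4 to 47). This was close to the 22 of all 5071 genes with a region and a single such window. It was well above the 6 of all 20801 genes in the reference with a single such window. The observed number of CpG dinucleotides was more than 0.6 times that expected from base composition in 71.9% of solute carrier windows. The shares were 78.9% for all genes with a region and 34.8% for the 20801 genes. The 24 solute carrier genes with the highest signal (96.5 to 219.5 per kb) had a median of 28.5, the 48 in the middle 19.5 and the 24 with the lowest signal (3.23 to 33.2 per kb) 19. Across the 96 genes the correlation between CpG number and log2 signal per kb was 0.313, against 0.461 across the 5071 genes. These points share their libraries and their base composition, and the values are descriptions. The plot of CpG number against signal shows both the trend and the wide scatter around it.

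**Figure D1:**
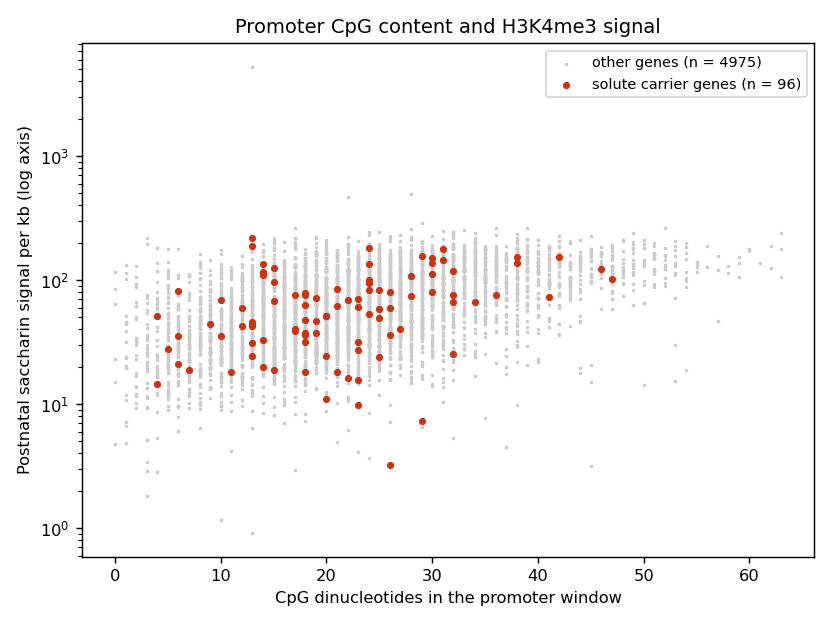
CpG dinucleotides in the promoter window (250 bases before to 50 after the listed start, x axis) against H3K4me3 signal per kb of region in postnatal saccharin samples (y axis, log scale), one point per gene. The 96 solute carrier genes (red) lie within the cloud of other genes (grey), and Slc5a5, with 29 CpG dinucleotides and 7.37 per kb, is among the lowest for its CpG number.

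Motif searches of the same windows on both strands gave the GC box GGGCGG in 75.0% of solute carrier windows. It was in 70.8% of windows of all genes with a region and 34.4% of those of the 20801 genes with a single window. The TATA box TATAAA was present in 4.17%, against 6.82% and 15.2%. The CCAAT box CCAAT was in 38.5%, 39.6% and 38.3%. The ETS motif CCGGAAG was in 13.5%, 17.6% and 8.99%, and the E-box CACGTG in 12.5%, 11.2% and 7.13%. The NRF1 motif GCGCATGCG and the cAMP response element TGACGTCA were each found in 1 solute carrier window (1.04%), against 4.38% and 3.87% of the windows of all genes with a region. Matches of different motifs could overlap one another, and most of the motifs contain a CpG, so their shares are not separate from the CpG counts.

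The regions of solute carrier genes were of ordinary width and strength. Median width was 1637 bp (797 to 3213 bp), against 1583 bp for all regions and 1627 bp for those with a gene. Median signal in postnatal saccharin samples was 56.7 per kb (2.37 to 224), against 50.2 per kb over all regions and 56.5 per kb over those with a gene. In pre- and postnatal saccharin samples it was 32.9 per kb (7.52 to 139), against 32.0 and 34.9 per kb. Wider regions held more signal, with a correlation of 0.786 between the logarithms of width and signal across the 187 genes. The order of the genes was much alike in both tables: log2 signal per kb correlated at 0.919 across the 187 genes (0.913 across all regions), and 22 of the 25 highest genes were shared.

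Slc35d1, a carrier of nucleotide sugars into the endoplasmic reticulum, had the highest level in the postnatal table with 224 per kb, above 99.4% of all regions, and 137 per kb in the pre- and postnatal table. Slc2a13, the proton-coupled myo-inositol transporter, held 219.5 and 139 per kb. Slc23a2, which carries vitamin C into neurons, held 209.8 and 134 per kb. Slc25a37, the mitochondrial iron importer mitoferrin 1, held 205 and 99.2 per kb. Next came Slc22a17, a receptor for the iron-binding protein lipocalin 2, with 189 per kb, and the zinc transporters Slc39a10 and Slc30a5 with 184 and 183 per kb in the postnatal table. Slc12a2, the chloride importer NKCC1, held 181 per kb, and the mitochondrial phosphate carrier Slc25a3 and the endolysosomal histidine and peptide transporter Slc15a4 both held 179 per kb. 16 genes exceeded 150 per kb, and 8 of the 10 highest in one table were among the 10 highest in the other.

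20 genes were under 20 per kb. Several are known from other organs, but these genes also included mitochondrial carriers such as Slc25a17 and Slc25a25 (both 18.8 per kb). The lowest were Slc30a8, the zinc transporter of insulin granules, with 2.37 per kb, and Slc10a7 with 3.23 per kb. Slc22a8, an organic anion transporter of kidney and choroid plexus, held 6.10 per kb, the thyroid iodide transporter Slc5a5 held 7.37 per kb, and Slc30a2, a zinc transporter of secretory glands, held 9.91 per kb. Their levels in the pre- and postnatal table were 12.0, 12.3, 19.8, 13.7 and 9.40 per kb in the same order, and Slc22a8 ranked 151 of 187 there. The widest regions were those of Slc22a23 (3213 bp), Slc35e4 (2961 bp), the lactate transporter Slc16a1 (2821 bp), the neuronal glutamine transporter Slc38a1 (2703 bp) and the choline transporter Slc44a1 (2676 bp). The narrowest were those of Slc10a7 (797 bp), Slc25a48 (815 bp) and Slc22a8 (855 bp).

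By substrate, the median level in postnatal saccharin samples was highest for glutamate, GABA and glycine reuptake transporters (67.8 per kb, 6 genes), glucose and hexose transporters (68.0 per kb, 10 genes), metal ion transporters (65.4 per kb, 20 genes) and mitochondrial carriers (65.0 per kb, 34 genes). It was lowest for monocarboxylate and di- and tricarboxylate transporters (27.1 per kb, 10 genes), where Slc16a1 at 155 per kb stood far above the rest at 10.9 to 45.5 per kb. The 4 genes that are no carriers had a median of 74.3 per kb. Levels spread widely within the larger lists, as the plot of levels by substrate shows.

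**Figure D2:**
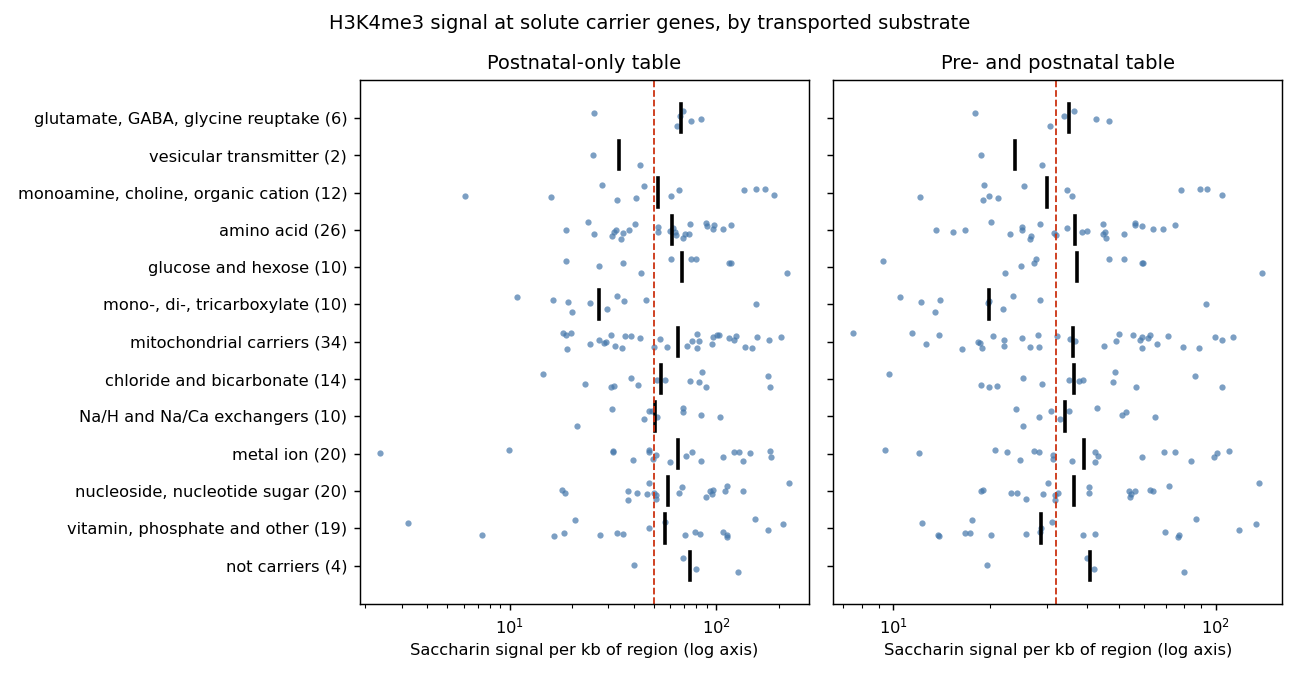
H3K4me3 signal per kb of region in saccharin samples (x axis, log scale) for 187 solute carrier genes grouped by transported substrate, with the number of genes in brackets, in the postnatal-only table (left) and the pre- and postnatal table (right). Black bars are list medians and the dashed line the median of all regions (50.2 and 32.0 per kb); Slc16a1 stands alone at the right of the monocarboxylate row.

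9 of the 187 genes are X-linked, and their median level in postnatal saccharin samples was 31.4 per kb (16.3 to 83.9), against 59.8 per kb for the 178 autosomal ones. All 363 X-linked regions with a gene had a median of 26.1 per kb. The median log2 difference, nicotine minus saccharin, of the X-linked members was 0.21 after postnatal exposure, with 6 of 9 positive. For the autosomal members it was 0.0035, with 91 of 178 positive. After pre- and postnatal exposure these medians were -0.05 (4 of 9 positive) and -0.0092 (88 of 178). 7 genes had a second, weaker region, which lay 8022 to 18724 bp from the first in 5 of them. Slc12a5 had one 27094 bp away and Slc9a9 one 510932 bp away. The strongest second region, at Slc3a2, held 29.7 in postnatal saccharin samples against 90.1 at the first. In the pre- and postnatal table the first region of Slc3a2 differed by -0.54 ± 0.29 (SE, log2, nicotine minus saccharin) and the second by 0.58 ± 0.34, and neither passed the test given below.

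The first question was whether nicotine after birth changed the mark at these genes. No difference passed the test: with limma's moderated test on log2(value + 1) and Benjamini-Hochberg adjustment over all regions, 0 of 14873 regions and 0 of 187 solute carrier genes passed an adjusted p of 0.05 (percent called 0, smallest adjusted p 0.9998). 143 regions were higher and 138 lower at an unadjusted p under 0.05 (0.961% and 0.928%), and among solute carrier genes 0 were higher and 1, Slc26a6, was lower. Every nicotine sample was above every saccharin sample at 29 genes and below at 25, near the 15.0% and 14.0% of all regions. 97 genes had a positive and 90 a negative difference, with a median of 0.0039 on the log2 scale against -0.0036 for all regions. 153 of the 187 differences were within 0.25 of zero, and the median standard error was 0.17. All 8 differences larger than 0.5 were at genes with a mean signal under 50, and 4 of them were negative.

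The second question was the same for exposure before and after birth. Again 0 of 14879 regions and 0 of 187 solute carrier genes passed (percent called 0, limma with Benjamini-Hochberg adjustment, smallest adjusted p 0.987). At an unadjusted p under 0.05, 1.72% of regions were higher and 1.87% lower. Among solute carrier genes 2 were higher (Slc1a6 and Slc35a1) and 3 lower (Slc10a4, Slc22a4 and Slc25a11). Groups did not overlap at 7 genes with nicotine higher and 4 with nicotine lower, against 4.49% and 4.46% of all regions. 92 differences were positive and 95 negative, with a median of -0.014 against 0.0027 for all regions. 131 were within 0.25 of zero and the median standard error was 0.24. Of 20 differences larger than 0.5, 18 were at genes with a mean signal under 50 and 13 were negative. The plot of differences by substrate shows both exposures.

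**Figure D3:**
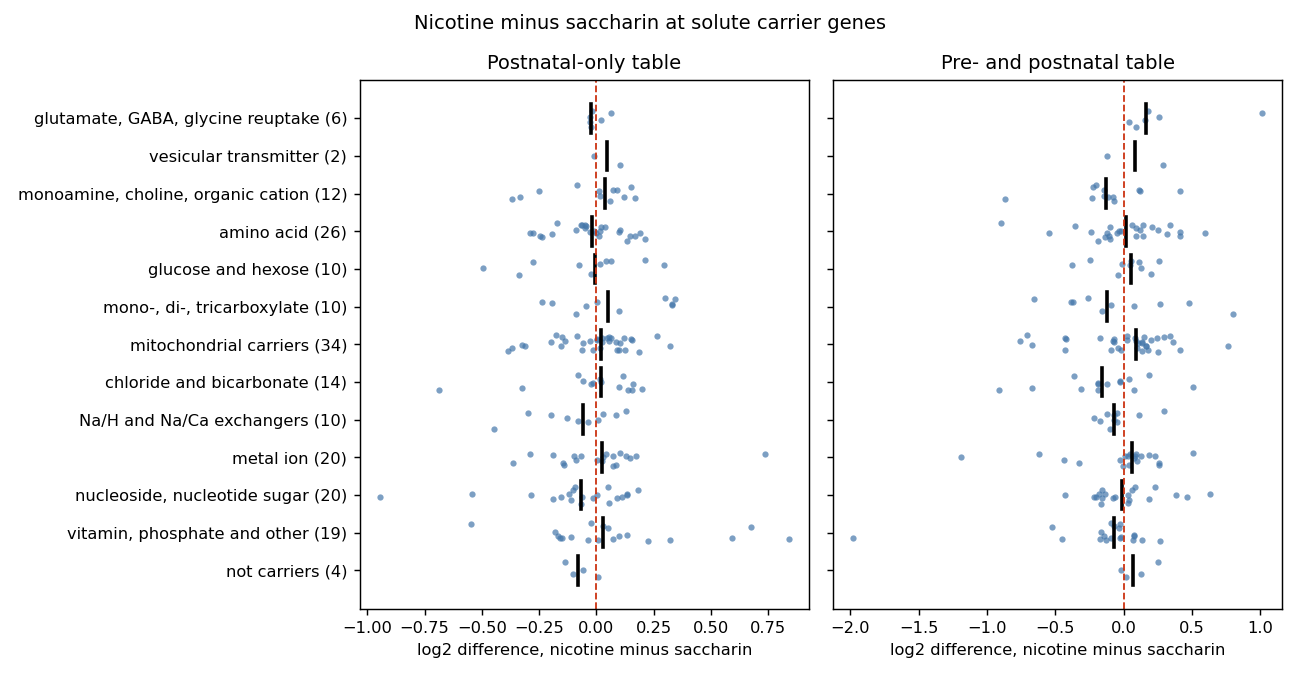
log2 difference, nicotine minus saccharin (x axis), for 187 solute carrier genes by transported substrate, in the postnatal-only table (left) and the pre- and postnatal table (right). Black bars are list medians and the dashed line is the median of all regions (-0.0036 on the left and 0.0027 on the right). The list medians lie between -0.08 and 0.05 on the left and between -0.16 and 0.16 on the right. No single gene passed the test.

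Reuptake transporters clear glutamate, GABA and glycine from the synapse. None of the 6 measured passed in either exposure, and 2 were positive and 4 negative after postnatal exposure. After pre- and postnatal exposure 6 of 6 were positive, with a median of 0.16 on the log2 scale, and 5 of 6, with a median of 0.07, without nicotine 1. Astrocyte markers had a median of 0.20 in the same comparison and of 0.09 without nicotine 1, and their part in the values of these transporters was not tested. Slc1a2 encodes GLT-1, the main glutamate transporter of astrocytes. Its signal was 166 and 191 in postnatal nicotine samples and 178 and 183 in saccharin samples, a log2 difference of -0.02 ± 0.12 (SE). In the pre- and postnatal table it was 125, 97.8 and 101 with nicotine and 87.4, 90.9 and 108 with saccharin (0.18 ± 0.18). The groups overlapped in both tables. Slc1a1, the neuronal glutamate transporter EAAC1, differed by -0.03 ± 0.13 and 0.04 ± 0.19. Slc6a11 (GAT-3), a GABA transporter of astrocytes, differed by -0.03 ± 0.15 after postnatal exposure and by 0.25 ± 0.28 after pre- and postnatal exposure.

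Slc1a6 (chr10:78250015-78250953 on mm9), the glutamate transporter EAAT4 of cerebellar Purkinje cells, gave the largest positive difference of all members in the pre- and postnatal table. Its signal there was 32.2, 22.5 and 43.2 with nicotine and 17.7, 7.59 and 25.2 with saccharin. The log2 difference was 1.01 ± 0.43 at an unadjusted p of 0.028, and nicotine 3 lay below saccharin 3, so the groups overlapped. In the postnatal table, at 24.4 and 22.8 against 15.5 and 32.5, it was 0.07 ± 0.39.

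Of vesicular transporters, only 2 of the listed genes had a region. Slc17a7 (chr7:52418862-52421037 on mm9) encodes VGLUT1, which fills glutamate vesicles in cortical projection neurons. It held 108 and 89.7 with postnatal nicotine and 79.1 and 106 with saccharin, and 62.4, 95.2 and 74.6 against 57.3, 76.0 and 55.9 after pre- and postnatal exposure. The differences were 0.10 ± 0.18 and 0.28 ± 0.22, with overlapping groups both times. Slc32a1, the vesicular GABA transporter of inhibitory neurons, held 31.3 and 26.5 against 27.7 and 30.4 (-0.01 ± 0.32), and 20.9, 24.3 and 11.7 against 27.0, 10.9 and 26.3 (-0.12 ± 0.44).

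Among 12 monoamine, choline and organic cation transporters, 8 were positive and 4 negative after postnatal exposure, and 3 positive and 9 negative after pre- and postnatal exposure. Slc44a5, a choline transporter-like protein, held 79.3 and 82.6 against 101 and 103 in the postnatal table. The groups did not overlap and the difference was -0.33 ± 0.16, but the pre- and postnatal values (70.2, 49.1 and 51.0 against 55.2, 70.2 and 57.6) overlapped, with -0.11 ± 0.23. Slc22a4, an ergothioneine and carnitine transporter, held 50.5 and 47.7 against 72.9 and 55.5 after postnatal exposure (-0.37 ± 0.23). After pre- and postnatal exposure it held 24.7, 14.9 and 13.7 against 21.95, 39.5 and 38.2, a difference of -0.87 ± 0.38 at an unadjusted p of 0.033. Nicotine 1 lay above saccharin 1 there, so the groups overlapped. Its neighbours in sequence, the carnitine transporter Slc22a5 and Slc22a21, are close relatives, and whether reads were split between them was not tested. Slc22a5 differed by -0.25 ± 0.17 after postnatal exposure and by 0.41 ± 0.24 after pre- and postnatal exposure, with groups that did not overlap in either table.

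Of 26 amino acid transporters 11 were positive and 15 negative after postnatal exposure, and 13 and 13 after pre- and postnatal exposure. Slc6a8, the X-linked creatine transporter, held 158 and 177 against 154 and 135 in the postnatal table (0.21 ± 0.13) and differed by -0.10 ± 0.19 in the other. Slc3a2, the heavy chain that many amino acid exchangers need to reach the membrane, held 67.5, 43.2 and 29.4 against 77.9, 74.6 and 46.8 after pre- and postnatal exposure (-0.54 ± 0.29). It held 77.2 and 70.8 against 81.1 and 99.1 after postnatal exposure (-0.27 ± 0.18). Slc6a20a, a proline transporter, held 19.1, 15.1 and 5.85 against 27.0, 20.1 and 23.0 after pre- and postnatal exposure, groups that did not overlap (-0.89 ± 0.46). Slc7a1, the main carrier of arginine and lysine, differed by 0.34 ± 0.18 in that table and by -0.07 ± 0.12 in the postnatal one. Slc38a1, the glutamine transporter of neurons, differed by -0.05 ± 0.13 and 0.14 ± 0.16.

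Glucose reaches the brain through Slc2a1 (GLUT1) in vessel walls and astrocytes and enters neurons through Slc2a3 (GLUT3). Slc2a1 held 186 and 162 with postnatal nicotine and 142 and 158 with saccharin, groups that did not overlap, with a difference of 0.21 ± 0.13. After pre- and postnatal exposure it held 85.3, 71.3 and 103 against 123, 90.0 and 96.0, and the difference was -0.25 ± 0.20. Slc2a3 held 53.4 and 29.5 with postnatal nicotine and 40.3 and 79.0 with saccharin, a difference of -0.50 ± 0.32 with overlapping groups. The samples with a high share of strong regions were the higher of each group. In the fit with that share as a 2-level class, the high class exceeded the low class at Slc2a3 by a log2 difference of 0.90 (adjusted p 0.000832, limma), and 5 other members also differed between the classes. They were Slc9a9 (1.08) and Slc38a7 (0.69), higher in the high class, with Slc30a8 (2.10) at values of 7.81 and 3.23 against 0.00885 and 1.02, and Slc17a5 (-0.54) and Slc35f1 (-0.39), lower in it. These 6 are 3.21% of the members, against 5.92% of all regions. In the same fit no solute carrier gene passed for nicotine. Slc2a13 differed by -0.02 ± 0.10 after postnatal and by 0.20 ± 0.15 after pre- and postnatal exposure.

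Lactate and related acids pass through the Slc16 family. Slc16a1 (MCT1) held 410.3 and 438 with postnatal nicotine and 446 and 428 with saccharin (-0.04 ± 0.11). In the pre- and postnatal table it held 258, 307 and 253 against 187, 303 and 299 (0.08 ± 0.17). Slc13a5, the citrate transporter, differed by 0.80 ± 0.49 after pre- and postnatal exposure at low signal, with 13.1, 24.7 and 35.4 against 21.7, 15.3 and 5.73.

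The 34 mitochondrial carriers (Slc25) gave 20 positive and 14 negative differences after postnatal exposure, and 21 and 13 after pre- and postnatal exposure, with medians of 0.02 and 0.09. Without nicotine 1 the second comparison gave 17 and 17, with a median of 0.0084. Slc25a11 (chr11:70459323-70460834 on mm9), the oxoglutarate and malate carrier of the malate-aspartate shuttle, held 20.4 and 23.5 in nicotine 3 and 4 of the pre- and postnatal table, against 55.1, 52.7 and 52.4 in saccharin samples. Nicotine 1, the library with the lowest share of strong regions, held 62.9, above all 3 saccharin samples. The difference was -0.76 ± 0.34 at an unadjusted p of 0.036, and -1.25 without nicotine 1, where its adjusted p of 0.0973 (limma) was the smallest of any member. With the share as a covariate it was -0.61. The postnatal values of 84.7 and 74.2 against 77.8 and 84.2 gave -0.03 ± 0.18.

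Slc25a46, a protein of the outer mitochondrial membrane linked to fusion, was higher in each pre- and postnatal nicotine sample (107, 121 and 115) than in any saccharin sample (85.3, 82.4 and 99.0), with a difference of 0.36 ± 0.18. Slc25a4, the ADP/ATP carrier of heart, muscle and brain, held 89.2, 65.4 and 67.7 against 48.9, 60.5 and 55.7, again without overlap (0.41 ± 0.22). After postnatal exposure the differences were 0.09 ± 0.12 and -0.01 ± 0.15, with overlapping groups. Slc25a5, the other main ADP/ATP carrier, differed by 0.0019 ± 0.23 and -0.42 ± 0.29. The X-linked uncoupling protein gene Slc25a14 was positive in both tables (0.32 ± 0.28 and 0.76 ± 0.38). The glutamate carrier Slc25a22 held 38.4 and 37.1 against 46.1 and 53.2 after postnatal exposure, without overlap (-0.38 ± 0.26), and differed by 0.14 ± 0.33 in the other table.

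Chloride transporters set how neurons respond to GABA. Of 14 chloride and bicarbonate transporters 8 were positive and 6 negative after postnatal exposure, with a median of 0.02. After pre- and postnatal exposure 4 were positive and 10 negative, with a median of -0.16. Without nicotine 1 these were 5 and 9, with a median of -0.26. Slc12a5 (KCC2), the chloride exporter of mature neurons, held 144 and 147 against 141 and 146 after postnatal exposure (0.02 ± 0.13). After pre- and postnatal exposure it held 80.4, 92.3 and 119.8 against 104, 93.1 and 96.8 (-0.02 ± 0.19). Slc12a2 (NKCC1), the importer, differed by 0.14 ± 0.11 and -0.19 ± 0.14. Slc26a6 (chr9:108756036-108757388 on mm9), an anion exchanger for chloride, bicarbonate and oxalate, was the only member under an unadjusted p of 0.05 after postnatal exposure. It held 26.7 and 24.005 against 35.05 and 48.7, without overlap, and the difference was -0.69 ± 0.31 at an unadjusted p of 0.040. In the pre- and postnatal table its values of 16.04, 4.21 and 32.5 overlapped the 31.2, 31.2 and 18.2 of saccharin samples, with a difference of -0.91 ± 0.52. Slc4a10, a sodium-coupled bicarbonate transporter of neurons, held 51.9, 125 and 115 against 50.0, 64.4 and 80.2 after pre- and postnatal exposure (0.50 ± 0.27). As at Slc25a11, nicotine 1 stood on the saccharin side, and without it the difference was 0.90. After postnatal exposure it was 0.10 ± 0.25.

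Sodium-proton and sodium-calcium exchangers regulate the pH and calcium of the cytosol and of organelles. For 10 of them the postnatal median was -0.06, with 4 positive and 6 negative. The pre- and postnatal median was -0.07, with 2 positive and 8 negative. Without nicotine 1 it was 0.02, with 6 positive and 4 negative. The groups of every member overlapped in both tables. Slc8a1 (NCX1) differed by -0.04 ± 0.16 and -0.05 ± 0.21 and Slc24a2 (NCKX2, a neuronal calcium exchanger) by 0.09 ± 0.12 and 0.11 ± 0.17. The endosomal exchanger Slc9a8 differed by 0.13 ± 0.13 after postnatal exposure and by 0.29 ± 0.18 after pre- and postnatal exposure.

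Slc30a3 (ZnT3) loads zinc into glutamatergic vesicles of the cortex. It held 151 and 174 against 184 and 161 after postnatal exposure (-0.09 ± 0.13). After pre- and postnatal exposure it held 102, 51.2 and 86.4 against 94.7, 109 and 109.9, and nicotine 3 was far below the rest (-0.44 ± 0.22). Slc30a9 differed by 0.17 ± 0.11 and 0.01 ± 0.16. Of 20 metal ion transporters 12 were positive after postnatal and 14 after pre- and postnatal exposure.

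Slc35a1 (chr4:34633413-34635139 on mm9) brings CMP-sialic acid into the Golgi. It held 108, 132 and 125 in pre- and postnatal nicotine samples and 82.2, 90.4 and 107 in saccharin samples, without overlap, with a difference of 0.38 ± 0.18 at an unadjusted p of 0.042. In the postnatal table it held 185 and 169 against 157 and 165, also without overlap, with a difference of 0.13 ± 0.12. Slc35a3, the carrier of UDP-N-acetylglucosamine, held 277 and 297 with postnatal nicotine and 253 and 253 with saccharin (0.18 ± 0.11) and differed by 0.06 ± 0.15 in the other table. Slc35a4 had low signal, 14.9 and 7.69 against 16.5 and 28.3 after postnatal exposure (-0.94 ± 0.47), and differed by -0.06 ± 0.33 after pre- and postnatal exposure.

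Of 19 vitamin, phosphate, peptide, lipid and other transporters 11 were positive and 8 negative after postnatal exposure. After pre- and postnatal exposure 5 were positive and 14 negative, or 7 and 12 without nicotine 1. Slc20a2 (chr8:23586330-23588404 on mm9) encodes PiT2, a phosphate importer of vessels and neurons. Its values were 264 and 279 against 226 and 239 after postnatal exposure (0.22 ± 0.11), and 192, 209.8 and 172 against 149, 170.0 and 158 after pre- and postnatal exposure (0.26 ± 0.15). Every nicotine sample exceeded every saccharin sample in both tables. Slc10a4 (chr5:73397824-73398786 on mm9), a vesicular protein of cholinergic and monoaminergic neurons, had the largest difference of any member. In the pre- and postnatal table it held 8.62, 1.12 and 1.94 with nicotine and 27.9, 14.8 and 7.01 with saccharin, and nicotine 1 lay above saccharin 3. The difference was -1.98 ± 0.70 at an unadjusted p of 0.010. In the postnatal table it went the other way, with 21.9 and 32.8 against 16.05 and 19.1 (0.59 ± 0.38). The markers of thalamus and hindbrain given above were also negative in the pre- and postnatal comparison, and their part in the value at Slc10a4 was not tested. Slc5a5 held 16.2 and 13.1 against 7.22 and 8.18 after postnatal exposure (0.84 ± 0.49), and 18.1, 9.64 and 4.87 against 21.7, 11.2 and 10.1 in the other table (-0.45 ± 0.54). Slc4a1ap, an adaptor and no carrier, differed by -0.14 ± 0.15 and 0.25 ± 0.24. The plot of single samples shows genes from both ends of these comparisons.

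**Figure D4:**
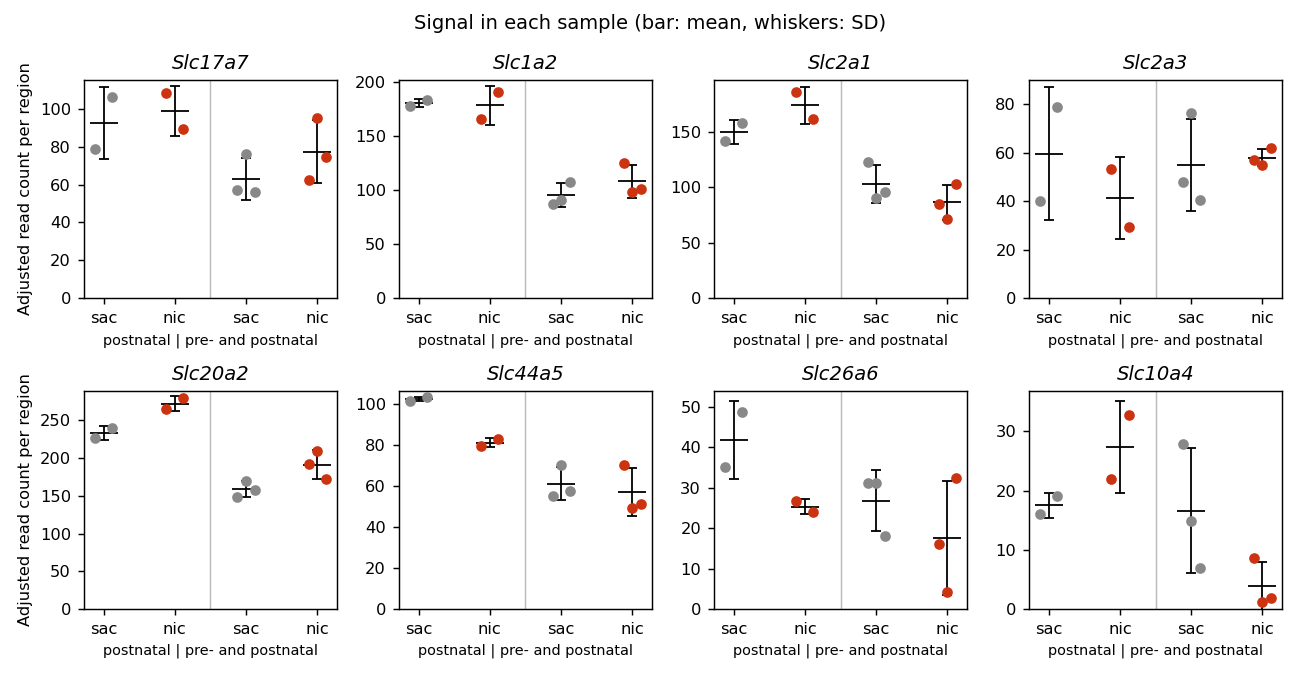
Adjusted read count per region (y axis) in each sample for 8 solute carrier genes, with saccharin samples in grey and nicotine samples in red, postnatal-only exposure left and pre- and postnatal exposure right of the grey line; bars are means and whiskers SD. Postnatal samples are means of 2 libraries. Slc20a2 is higher in every nicotine sample of both exposures, whereas Slc10a4 points in opposite directions.

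Leaving out nicotine 1 of the pre- and postnatal table, the library with the lowest share of strong regions, moved many of these differences, in either direction. Without it the reuptake transporters Slc1a2, Slc1a1 and Slc6a11 differed by 0.07, -0.16 and 0.08, and the vesicular transporter Slc32a1 by -0.22. The differences at Slc25a4 and Slc35a3 were smaller without it, at 0.27 and 0.01, and those at Slc25a5, Slc25a22, Slc24a2, Slc3a2, Slc44a5, Slc5a5 and Slc4a1ap larger in size, at -0.65, 0.25, 0.22, -0.84, -0.27, -0.88 and 0.52. The second region of Slc3a2 moved to 0.90. Slc30a9 moved to 0.12, and Slc12a5 and Slc35a4 changed sign, to 0.10 and 0.13, as did Slc1a1 at the -0.16 given above. None of them passed the test in that fit. At an unadjusted p under 0.05 it gave 19 members (of 187) and 11.4% of all regions.

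Finally, both exposures were set side by side. They have separate controls, and 96 of 187 genes (51.3%) had the same sign in both, against 50.2% of all regions. The correlation of the differences across the 187 genes was -0.10, and -0.03 across all regions. Groups failed to overlap in both tables at 5 members (2.67%), against 2.84% of all regions: Slc20a2 and Slc35a1 were higher in both, Slc16a14 was lower in both (-0.24 and -0.37), and Slc16a9 and Slc22a5 were lower after postnatal and higher after pre- and postnatal exposure. A z test of the difference between the 2 nicotine effects called 0 of 14871 regions (percent called 0) and 0 members. At an unadjusted p under 0.05 it gave 3.65% of regions and 5 members: Slc10a4, Slc22a5, Slc2a1, Slc35a2 and Slc7a14, with a smallest adjusted p of 0.9997 from the z test on the limma fits. The plot of both differences shows the members spread around zero without a common axis.

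**Figure D5:**
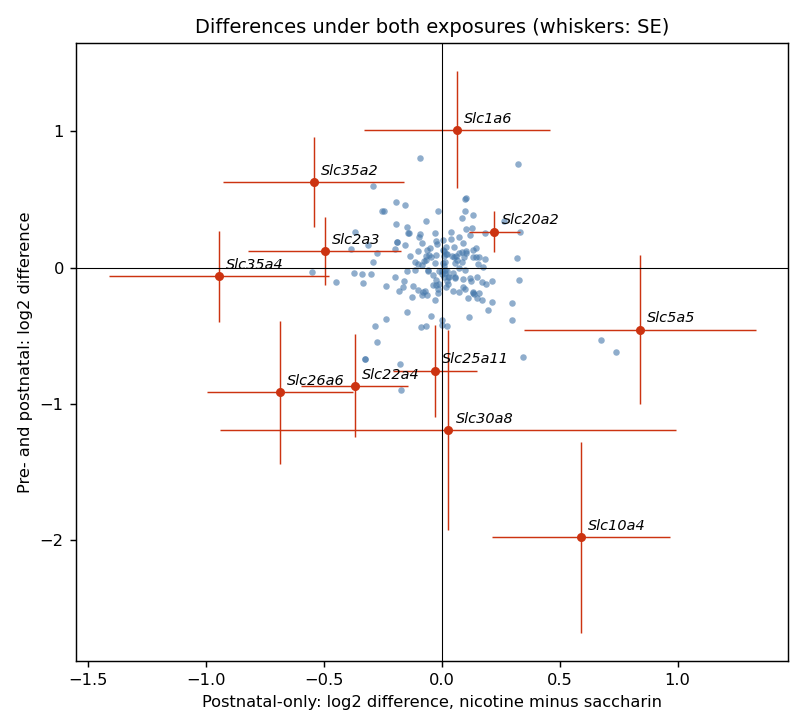
log2 difference, nicotine minus saccharin, after postnatal-only exposure (x axis) and after pre- and postnatal exposure (y axis), one point per solute carrier gene (n = 187). Red points with SE whiskers mark genes the text names; Slc10a4 lies at the lower right with 0.59 and -1.98, and Slc20a2 and Slc1a6 lie in the upper right.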

How the data were processed

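H3K4me3 was measured by ChIP-seq in mouse cortex. Per the labels' protocols, 50 mg of tissue was fixed, each library had 18 cycles of PCR, and the Illumina Genome Analyzer ran for 36 cycles. The authors deposited 1 table per exposure with a signal for each library and region on build mm9: read counts already adjusted with edgeR per the submitters' processing notes, never negative and not whole. No aligner, peak caller or filter is named in the sources used. Of 19203 rows in each table, 4322 lacked values and were dropped, leaving 14881.

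Each exposure was fitted alone with limma 3.58.1 (trend) in R 4.3.3 on log2(value + 1), keeping regions that reached 1 in enough samples to fill the smaller group. All 187 members passed this filter in both tables. Tests were two-sided, with Benjamini-Hochberg adjustment over all regions and a threshold of 0.05. Differences on this scale understate the change of low regions. Postnatal library pairs that differed by counting noise (regions with means from 10 to 1000) were averaged. Signal per kb is the saccharin mean over region width. Exposures were compared by a z test on both fits. The fits were tested on simulated data. Figures used matplotlib 3.10.9 in Python 3.11.15.

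Genes were named by rule: per exposure and direction the 5 members with the lowest p, the lowest p of each list, 24 transporters of known role in brain of which 19 were measured, and the extremes of level and width. Of these, 4 are not reported here. Members and lists were chosen with earlier results of these data known. The list of genes that are not carriers was added after the values were seen, from their symbols. Genes named for groups that did not overlap in both exposures, for the z test, for the share of strong regions or for a second region were chosen after their values were seen. 185 of 187 transcript identifiers carried the same symbol in RefSeq (GRCm38.p6), and 2 were not found. Alternatives were another pseudocount, other filters and scalings, the replicate number as a block, leaving out samples, all 8 postnatal libraries as samples, and the share of strong regions in the model.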

Additional observations from a re-analysis of the deposited data

How the results depend on the processing

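The count of solute carrier genes that passed an adjusted p of 0.05 (limma) was 0 in both exposures under every alternative run. Over all regions, 9 passed for postnatal nicotine with the class of strong-region share as a factor, and 31 without nicotine 3-4 or 7 without nicotine 1-2, in a range of 0 to 31 over the samples left out. Of the pre- and postnatal regions 17 passed without nicotine 1, in a range of 0 to 17; 19 members then had an unadjusted p under 0.05, against 5 with all samples, and 1690 of 14881 regions (11.4%) did. Where a group was left with 1 sample, that sample was assumed to vary like the others. Deviations of samples with the same replicate number correlated at -0.46 in the postnatal table and at -0.11 and -0.10 in the other. Postnatal samples of the same number differed in share class, and only numbers 1 and 3 occurred in both pre- and postnatal groups. These values therefore cannot settle whether replicate numbers pair the samples. With the replicate block 1 postnatal region and 0 pre- and postnatal ones passed. The crossed postnatal pairing equals the share class. Its 0.46 is the -0.46 above with the sign reversed, which 2 samples per group require, and is no separate result. The median postnatal difference of the members moved to -0.014 under quantile normalization. The cause of these moves was not tested.

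Some differences, none of them called, changed sign. With all 8 postnatal libraries as samples Slc25a5 was -0.0055. Under cyclic loess scaling the postnatal differences of Slc25a11, Slc25a4 and Slc32a1 were 0.016, 0.0044 and 0.078, and that of Slc30a9 in the other table -0.044. Under quantile scaling Slc25a11 and Slc32a1 were 0.020 and 0.085 in the postnatal table, and Slc16a1, Slc1a1 and Slc30a9 were -0.020, -0.017 and -0.060 in the other. With the replicate block the pre- and postnatal differences of Slc44a5, Slc4a1ap and Slc8a1 were 0.058, -0.030 and 0.021, and with the share as a covariate Slc30a9 was -0.023. Leaving out samples in turn, postnatal differences ran for Slc12a5 from -0.00025 to 0.043, Slc13a5 from -0.78 to 0.59, Slc16a1 from -0.090 to 0.0034, Slc17a7 from -0.11 to 0.32, Slc1a1 from -0.15 to 0.094, Slc1a2 from -0.12 to 0.083, Slc1a6 from -0.44 to 0.58, Slc24a2 from -0.00082 to 0.17, Slc25a11 from -0.12 to 0.066, Slc25a4 from -0.14 to 0.12, Slc25a5 from -0.22 to 0.22, Slc2a13 from -0.066 to 0.020, Slc30a3 from -0.19 to 0.015, Slc32a1 from -0.13 to 0.11, Slc38a1 from -0.25 to 0.15, Slc4a10 from -0.17 to 0.37, Slc4a1ap from -0.33 to 0.049, Slc6a11 from -0.075 to 0.018, Slc6a20a from -0.36 to 0.018 and Slc8a1 from -0.23 to 0.16. Pre- and postnatal differences ran for Slc12a5 from -0.18 to 0.10, Slc16a1 from -0.15 to 0.20, Slc1a1 from -0.16 to 0.15, Slc25a22 from -0.061 to 0.25, Slc2a3 from -0.064 to 0.38, Slc30a9 from -0.13 to 0.12, Slc32a1 from -0.53 to 0.17, Slc35a4 from -0.18 to 0.13 and Slc8a1 from -0.24 to 0.052. All other values kept their direction and their side of the threshold under the alternatives run, over the 40 genes named by p or role, Slc16a14, Slc16a9, Slc22a5, Slc35a2, Slc7a14 and the second region of Slc3a2. Genes named for their level, width or share class were not recomputed singly.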
